A study of Caenorhabditis elegans with 2 samples.

Results

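Among the peaks of the tagged transcription factor subunit SNPC-1.3, 344 lay away from annotated promoters and short RNA genes. They were chosen by position alone: the summit was more than 500 bp from the 5′ end of every protein-coding gene and more than 250 bp from every tRNA, snRNA, snoRNA, miRNA, piRNA, rRNA and other short non-coding RNA gene (under 500 bp). These distal peaks were 344 of the 1650 nuclear peaks, or 20.8% (95% exact Clopper-Pearson interval 18.9 to 22.9%), and the whole peak list held 1676. Each summit was placed in 1 of 4 kinds of position: 64 were in an exon of a protein-coding gene, 77 in an intron, 97 outside genes but within 500 bp downstream of a 3′ end (3′ flanks), and 106 elsewhere between genes (intergenic).

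The peaks came from chromatin immunoprecipitation and sequencing (ChIP-seq) with an anti-GFP antibody on sonicated chromatin of whole Caenorhabditis elegans. There was 1 group of 2 biological replicates: young adult hermaphrodites of strain YL485, age unknown, in which SNPC-1.3 (F08F3.9) carried a C-terminal GFP-FLAG tag. One control served for both replicates in the calling of regions, and neither an untagged strain nor another stage is compared here. Regions called on the pooled replicates are called candidates, and those in the authors' irreproducible discovery rate (IDR) list are called IDR peaks. The 1650 nuclear IDR peaks were the nuclear candidates of highest pooled signal, so a single IDR peak need not be high in both replicates.

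SNAPc, the small nuclear RNA activating complex, brings RNA polymerases to snRNA and spliced leader RNA promoters. SNPC-1.3 resembles one of its subunits and is known for piRNA transcription in the male germline. RNA polymerase III genes such as tRNA genes carry promoter elements within the transcribed region, the A box and the B box. The transcripts of many C. elegans genes are trans-spliced, so that an annotated 5′ end is often the splice site of the spliced leader and not the start of transcription.

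The sequences 50 bp to each side of the summit are shown for 6 distal peaks of high signal, the 2 highest off the first autosome in each of the 3′ flanks, introns and intergenic positions whose window held no exon. They are the plus strand of ce11 (WBcel235, RefSeq), and capitals mark, on either strand, a match to the B box pattern (GWTCRANNC), to the word GGGCGG or to the word GAGAGA. Only the hcp-3 window held one of these, a GAGAGA.
hsp-1 3′ flank, chrIV:17281341-17281441: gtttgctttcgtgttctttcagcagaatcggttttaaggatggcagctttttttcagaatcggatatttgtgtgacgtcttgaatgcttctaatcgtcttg
Y48A6B.9 3′ flank, chrIII:11036226-11036326: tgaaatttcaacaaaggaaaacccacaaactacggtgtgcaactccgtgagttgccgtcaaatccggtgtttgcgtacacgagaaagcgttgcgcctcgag
zip-7 intron, chrIV:16503749-16503849: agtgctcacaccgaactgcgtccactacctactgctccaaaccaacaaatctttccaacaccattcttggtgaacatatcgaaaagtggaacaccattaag
lips-10 intron, chrII:8441654-8441754: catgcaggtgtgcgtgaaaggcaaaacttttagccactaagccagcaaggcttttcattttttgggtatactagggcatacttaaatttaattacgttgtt
between egrh-2 and lep-2, chrIV:991199-991299: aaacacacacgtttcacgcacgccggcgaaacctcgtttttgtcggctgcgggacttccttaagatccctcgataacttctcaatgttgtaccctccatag
between hcp-3 and hlh-11, chrIII:9617051-9617151: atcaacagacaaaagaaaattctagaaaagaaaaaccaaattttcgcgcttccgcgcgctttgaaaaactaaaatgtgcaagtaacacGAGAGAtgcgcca

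The other sequences were selected after the values were seen. They are the 4 distal peaks within 250 bp of a tRNA pseudogene and the 2 of highest signal with a GGGCGG word within 50 bp of the summit (same restrictions), with capitals as above. The B box pattern stood in 3 of the 4 tRNA pseudogene windows. At K10B2.t1 it stood outside the printed window, but within 100 bp of the summit. It also stood, next to GGGCGG, in the window upstream of F02E8.4, a member with no annotated tRNA gene within 250 bp. The signal of that peak was 97, with rank 241 in replicate 1 and rank 253 in replicate 2.
tRNA pseudogene ZK380.t2, chrX:1643815-1643915: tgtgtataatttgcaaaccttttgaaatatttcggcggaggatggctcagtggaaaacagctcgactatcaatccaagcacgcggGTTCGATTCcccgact
tRNA pseudogene Y22D7AR.t1, chrIII:1743258-1743358: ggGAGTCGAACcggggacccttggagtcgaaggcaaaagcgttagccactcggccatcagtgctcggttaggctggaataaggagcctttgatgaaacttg
tRNA pseudogene K10B2.t1, chrII:6358397-6358497: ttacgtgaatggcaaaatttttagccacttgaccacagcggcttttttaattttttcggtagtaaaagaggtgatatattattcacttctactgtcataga
tRNA pseudogene C52E12.t1, chrII:7001618-7001718: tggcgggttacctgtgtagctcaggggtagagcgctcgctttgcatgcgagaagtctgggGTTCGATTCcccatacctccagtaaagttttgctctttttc
upstream of F02E8.4, chrX:4453253-4453353: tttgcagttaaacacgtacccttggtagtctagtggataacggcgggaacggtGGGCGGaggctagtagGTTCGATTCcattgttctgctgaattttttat
between K08B5.1 and ser-1, chrX:16565900-16566000: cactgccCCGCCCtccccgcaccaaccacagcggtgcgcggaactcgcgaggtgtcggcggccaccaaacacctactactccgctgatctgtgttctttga

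Distal candidates were seldom IDR peaks. Of 19439 nuclear candidates that met the same position rule, 344 were in the IDR list (1.77%, interval 1.59 to 1.96%), against 12.4% (11.8 to 13.0%) of the other 10533 nuclear candidates. Over all 29972 nuclear candidates the share was 5.51%. The positions the rule allows covered 74.7 Mb, or 74.5% of the nuclear genome. All intervals cover counting error only, and no test was run over regions, since regions of 1 pair of samples are not replicates.

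The distal share grew towards the bottom of the IDR list. Of the 50 nuclear IDR peaks of highest signal 3 were distal (interval 1.25 to 16.5%), then 15 of the 150 at ranks 51 to 200 (5.71 to 16.0%), 16.0% of ranks 201 to 500, 19.2% of ranks 501 to 1000, and 28.0% (24.6 to 31.6%) of ranks 1001 to 1650. The signal, a value per region on the scale of the authors' peak caller that is used here only to order regions within a list, had a median of 51.6 in distal peaks (range 39.9 to 205), against 59.2 in the other nuclear IDR peaks (39.8 to 411). The other 19095 distal candidates had a median of 12.8 and reached 39.8. That they lie below the distal peaks follows from the IDR list, which holds the nuclear candidates of highest pooled signal.

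The distal peaks were spread unevenly over the 4 kinds of position. In 3′ flanks there were 97 distal peaks, 28.2% of them (23.5 to 33.3%), against 7.46% of the other distal candidates and 5.22% of the bases the rule allows. In introns there were 77 (22.4%, 18.1 to 27.2%), against 45.7% of the other distal candidates and 35.8% of the bases. Exons held 64 (18.6%, 14.6 to 23.1%), against 23.1% of the other distal candidates and 29.1% of the bases. Intergenic positions held 106 (30.8%, 26.0 to 36.0%), against 23.7% of the other distal candidates and 29.9% of the bases. Per megabase allowed, 3′ flanks had 24.8 distal peaks, intergenic positions 4.74, exons 2.95 and introns 2.88.

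**Figure D1:**
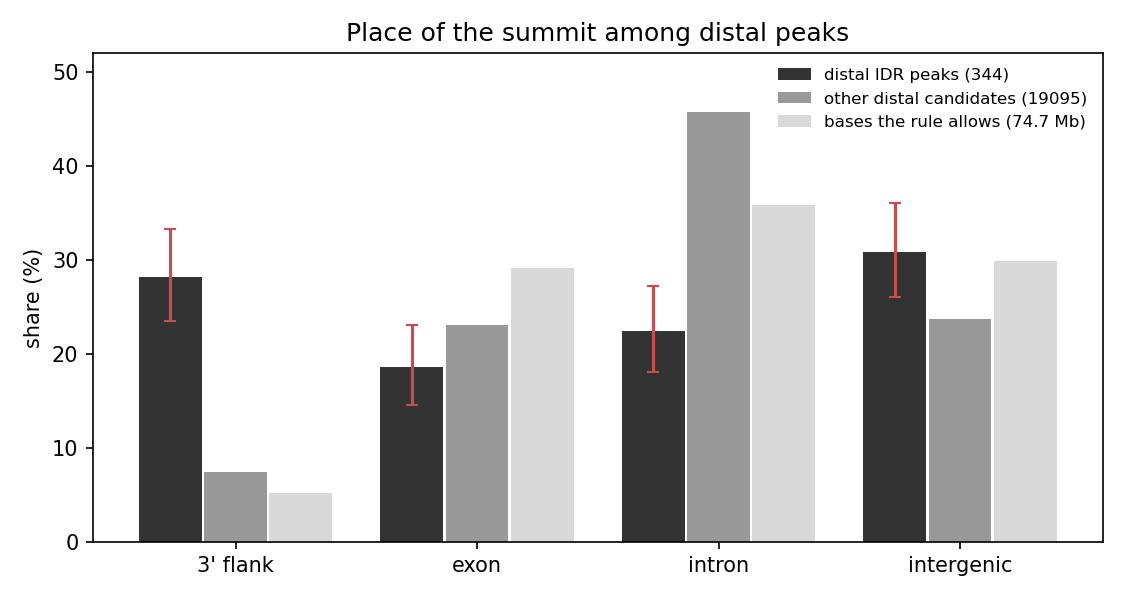
Share of distal IDR peaks (black, with 95% Clopper-Pearson intervals of counting error), of other distal candidates (dark grey) and of the bases the rule allows (light grey), in percent, by place of the summit. In 3′ flanks the distal peaks stand at 28.2% against 7.46% of other candidates, and in introns at 22.4% against 45.7%.

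Read by position, 6.38% of distal candidates in 3′ flanks were IDR peaks, 2.29% of those in intergenic positions, 1.43% in exons and 0.875% in introns, beside 1.77% over all distal candidates. The median signal lay between 47.7 in exons and 52.6 in introns. The lower and upper quartiles were 43.9 and 71.8 in 3′ flanks and 43.1 and 67.2 in exons. They were 44.7 and 67.0 in introns and 43.7 and 61.2 in intergenic positions. The lower end of the signal, alike in all 4, is set by the cut of the IDR list. Each replicate was also taken alone, by the 1650 nuclear regions of highest signal in its own list. By the same rule 449 of these were distal in replicate 1 (27.2%) and 371 in replicate 2 (22.5%), a mean of 24.8% ± 3.34 (SD, n = 2).

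The share in 3′ flanks was 23.4% of the distal regions in replicate 1 and 27.2% in replicate 2. The share in introns was 24.1% in replicate 1 and 20.8% in replicate 2. Exons differed more: they held 146 distal regions (32.5%) in replicate 1 and 88 (23.7%) in replicate 2. Both shares were above the 23.1% of the other distal candidates, whereas the 18.6% of the distal IDR peaks was below it. Intergenic positions held 20.0% in replicate 1 and 28.3% in replicate 2. The first was below and the second above the 23.7% of the other distal candidates.

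Many distal peaks lay at gene 3′ ends. Of the 344 distal peaks 163 (47.4%, 42.0 to 52.8%) had the summit within 500 bp, on either side, of the 3′ end of a protein-coding gene, against 3907 (20.5%) of the other distal candidates. In the lists of single replicates this was 234 of 449 (52.1%) in replicate 1 and 185 of 371 (49.9%) in replicate 2, with an SD of 1.59 percentage points (n = 2). The 163 peaks comprised the 97 in 3′ flanks, 58 in exons and 8 in introns, with a median position 89.0 bp downstream of the nearest 3′ end.

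The summits gathered just past the 3′ end. The first 100 bp downstream held 60 distal peaks (17.4%), against 3.86% of the other distal candidates, and the next 100 bp held 42 (12.2%), against 3.13%. Together these 102 were 29.7% of distal peaks (24.9 to 34.8%), against 6.99% of the other distal candidates; the value was 24.5% in replicate 1 alone and 30.2% in replicate 2 alone. From 501 to 1000 bp downstream there were 26 (7.56%), against 6.79%, and 11 lay between 500 and 599 bp (3.2%, against 1.51%). On the inner side of the 3′ end, 31 summits lay within 500 bp (9.01%, 6.21 to 12.5%), against 8.10%; in the lists of single replicates these were 73 of 449 (16.3%) in replicate 1 and 42 of 371 (11.3%) in replicate 2.

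**Figure D2:**
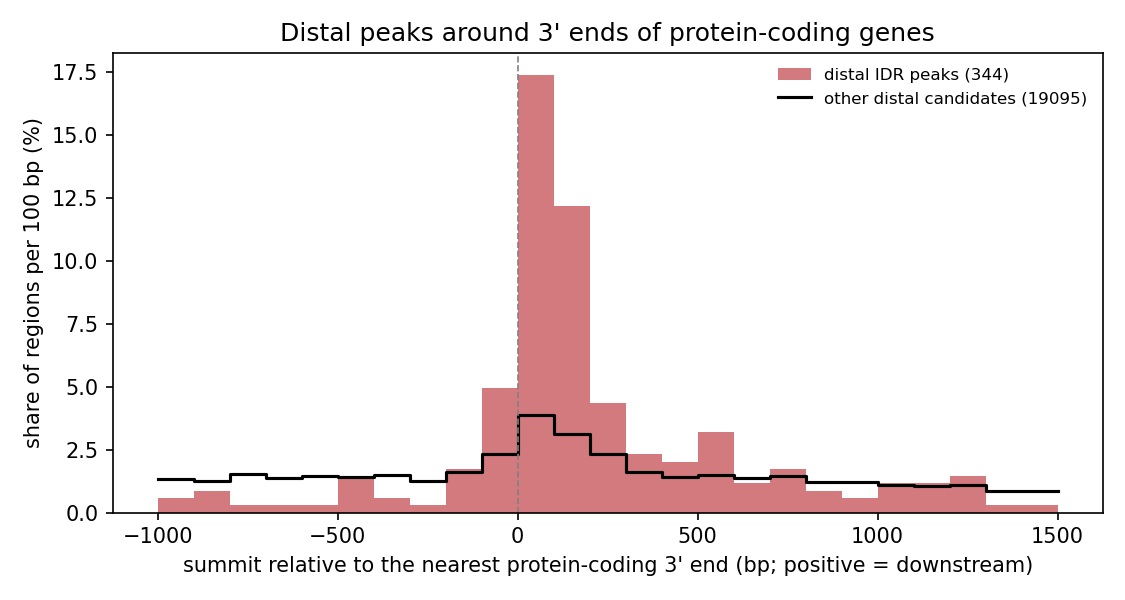
Position of the summit relative to the nearest protein-coding 3′ end in bp (positive is downstream, outside the gene), as the share of regions per 100 bp in percent, for 344 distal IDR peaks (bars) and 19095 other distal candidates (line). The bars reach 17.4% and 12.2% in the first 200 bp downstream, where the line is at 3.86% and 3.13%.

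Most distal peaks in exons were at 3′ ends as well. Of the 64, 58 (90.6%) were within 500 bp of a 3′ end, against 43.4% of the other distal candidates in exons. The summit was in coding sequence in 10 of 64 (15.6%, 7.76 to 26.9%), against 64.5% of the other exon candidates. Over all distal peaks 2.91% were in coding sequence, against 14.9% of the other distal candidates.

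The strands of the flanking genes were compared for the 203 distal peaks outside genes. Genes that converge, both ending towards the peak, flanked 46 (22.7%, 17.1 to 29.0%), against 12.6% of the other distal candidates outside genes. Divergent genes flanked 47 (23.2%, 17.5 to 29.6%), against 30.5%, and tandem genes flanked 110 (54.2%), against 56.7%. A 3′ flank cannot lie between divergent genes, so these pooled shares follow in part from the share of 3′ flanks. In intergenic positions alone 5.66% were between convergent genes, against 5.50%, and 44.3% between divergent genes, against 40.1%. Within 3′ flanks alone 40 of 97 (41.2%, 31.3 to 51.7%) were between convergent genes, against 35.3%, a value inside the interval of the distal peaks.

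In all, 243 genes had their 3′ end within 500 bp of a distal peak, and 80 of the 163 peaks were near the 3′ ends of several genes at once. Of the 243 genes, 75 (30.9%, 25.1 to 37.1%) also had an IDR peak within 500 bp of their own 5′ end, against 443 of 4335 genes (10.2%) at the 3′ ends near other distal candidates and 1187 of all 19973 protein-coding genes (5.94%). The promoter peak had the higher signal at 48 of the 75 genes. The median signal was 57.3 at the 3′ ends and 66.0 at the promoters of these genes. The 75 genes lay at 66 distal peaks, so some distal peaks are counted for more than 1 gene in these values.

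**Figure D3:**
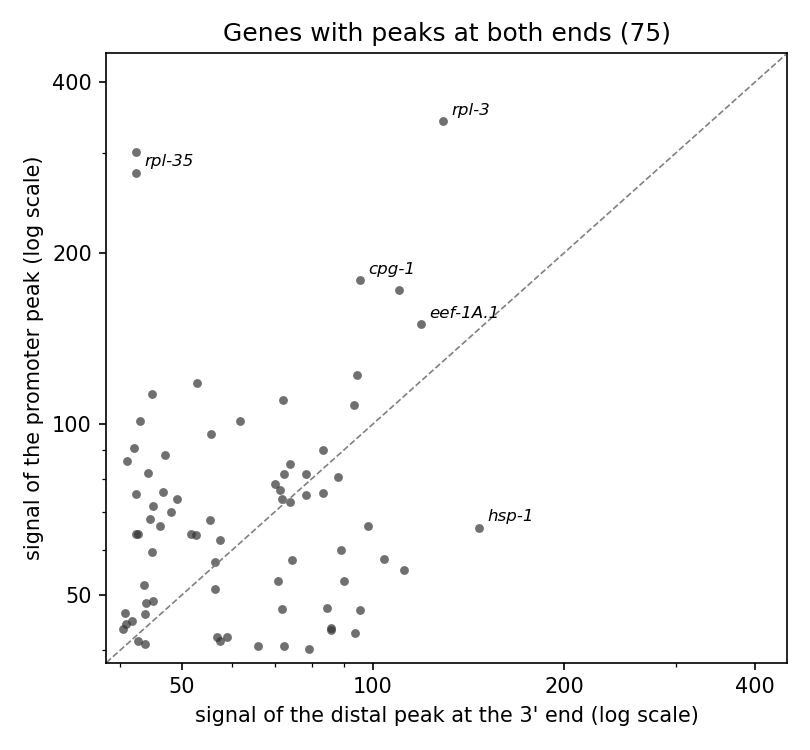
Signal of the distal peak at the 3′ end (horizontal, log scale) and of the promoter peak of the same gene (vertical, log scale), in the units of the authors' caller within the IDR list, for 75 genes; the dashed line marks equal signal. The promoter is higher at 48 genes, such as rpl-35 with 42.3 at the 3′ end and 277 at the promoter, while hsp-1 has 147 at the 3′ end and 65.7 at the promoter. A distal peak at the 3′ ends of several of these genes is drawn for each of them.

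Ribosomal protein genes were frequent among these. Of 81 ribosomal protein genes, 18 (22.2%) had a distal peak within 500 bp of the 3′ end, beside 1.22% of all protein-coding genes, and 15 of the 18 also had a promoter peak. As a share of the 163 peaks at 3′ ends they made up 11.0%, against 0.665% of the other distal candidates at 3′ ends. The signal of the 18 ranged between 42.3 and 129, and the summit lay between 12 and 293 bp past the 3′ end. Promoter peaks were at 60 of the 81 genes.

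The ribosomal protein peak of highest signal was at rpl-3, which encodes a protein of the large ribosomal subunit. Its summit was 21 bp past the rpl-3 3′ end, in an exon of the convergent gene tir-1, at chrIII:3869470-3869745. The signal was 129 there and 341 at the rpl-3 promoter, and the peak had rank 87 in replicate 1 and rank 78 in replicate 2. At rps-19, of the small subunit, the signal was 109.7 at the 3′ end and 172 at the promoter, with rank 370 in replicate 1 and rank 109 in replicate 2. At rpl-11.1 the signal was 94.5, with rank 119 in replicate 1 and rank 415 in replicate 2, and no promoter peak was in the IDR list.

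The replicates differed widely in rank at some members of this group. The peak at rpl-4 had rank 1674 in replicate 1 and rank 118 in replicate 2. The peak at rpl-13 had rank 8250 in replicate 1 and rank 609 in replicate 2. At rpl-35 the order was the other way, with rank 473 in replicate 1 and rank 4531 in replicate 2.

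Of 31 translation factor genes, 2 (6.45%) had a distal peak at the 3′ end, beside 1.22% of all protein-coding genes. A count of 2 is too small to read as a result about this gene group. The elongation factor gene eef-1A.1 had a signal of 119, with the summit 18 bp past its 3′ end in an exon of F31E3.12 at chrIII:6970001-6970073. Its ranks were 209 in replicate 1 and 87 in replicate 2, and its promoter peak had a signal of 149.9. The elongation factor gene eef-2 had a signal of 42.9 at a summit 162 bp inside the gene, and it also had a promoter peak in the IDR list.

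In a list of 10 eggshell and oocyte surface genes, 4 had a distal peak at the 3′ end, beside 1.22% of all protein-coding genes. The chondroitin proteoglycan gene cpg-1 had a signal of 95.5 at the 3′ end and 179 at the promoter, with rank 103 in replicate 1 and rank 385 in replicate 2. The chitin-binding protein gene cbd-1 had 73.3 and no promoter peak in the IDR list. Its peak had rank 790 in replicate 1 and rank 332 in replicate 2. The second chondroitin proteoglycan gene, cpg-2, had 72.1 at the 3′ end and 110.4 at the promoter. The 3′-end peak of cpg-2 had rank 521 in replicate 1 and rank 629 in replicate 2. The yolk receptor gene rme-2 had 71.8 at the 3′ end and 73.8 at the promoter. The replicates differed widely at the 3′-end peak of rme-2, with rank 3138 in replicate 1 and rank 358 in replicate 2. All 4 summits were between 42 and 98 bp past the 3′ end.

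The other lists had few or none. Among 22 genes of RNA-binding proteins of oocytes and embryos 1 had a distal peak at the 3′ end, the P granule gene pgl-1 with a signal of 59.9. Among 63 homeobox genes it was ceh-38 with 43.7, and among 269 nuclear receptor genes it was nhr-236 with 45.5. No distal peak was at the 3′ end of the 72 histone genes, the 10 genes of SNAPc and piRNA transcription, the 194 collagen and cuticle genes, the 31 major sperm protein genes or the 6 vitellogenin genes. Beside the 1.22% of all protein-coding genes, the share was 4.55% in the RNA-binding list, 1.59% in the homeobox list and 0.372% in the nuclear receptor list. Counts of 0 or 1 are too small to read as a result about these gene groups.

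Outside these lists the highest 3′-end peak was at hsp-1, which encodes an Hsc70 chaperone. It lay between hsp-1 and the convergent gene nra-1 at chrIV:17281321-17281467, 61 bp past hsp-1, with a signal of 147, rank 88 in replicate 1 and rank 43 in replicate 2. The promoter of hsp-1 had a signal of 65.7. The peak past Y48A6B.9, at chrIII:11036251-11036358, was 188 bp past its 3′ end and 664 bp upstream of spat-2, with a signal of 116, rank 176 in replicate 1 and rank 107 in replicate 2. The peak 124 bp past hmg-12, a high mobility group gene, was in an exon of lin-29, a zinc finger gene of the developmental timing pathway, at chrII:11917629-11917904. Its signal was 112, with rank 242 in replicate 1 and rank 102 in replicate 2, and the promoter of hmg-12 had a signal of 55.4.

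Distance from 5′ ends showed members close to the limit of the rule. Between 501 and 750 bp from the nearest protein-coding 5′ end there were 69 distal peaks (20.1%), against 11.2% of the other distal candidates, and 45 of the 69 (65.2%) were upstream of that gene, against 45.5%. Between 751 and 1000 bp there were 46 (13.4%), against 9.40%, and here 34.8% were upstream, against 43.8%. The upstream share was 32.7%, against 38.9%, between 1001 and 2000 bp, and 38.5%, against 37.0%, between 2001 and 5000 bp. More than 5000 bp away there were 29 (8.43%), against 16.3%, with 20.7% upstream, against 33.9%. Of the 106 intergenic peaks 88 (83.0%, 74.5 to 89.6%) were upstream of the nearest 5′ end, against 82.7%, and 37 (34.9%, 25.9 to 44.8%) were upstream within 1000 bp, against 19.5%.

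The members nearest to the 5′ limit were at 502 bp from sms-3 with a signal of 84.1, at 504 bp from the polarity gene par-3 with 71.0 and at 513 bp from urm-1 with 85.8. Just outside the rule were peaks at 496 bp from sin-3 with 56.7, at 495 bp from the histone gene his-61 with 40.2 and at 492 bp from K12H4.5 with 108. At the RNA limit the nearest members were at 259 bp from the ncRNA gene Y67D8C.15 with 45.0, and at 271 and 281 bp from piRNA genes with 41.8 and 55.1. Outside were peaks at 212 bp from the snoRNA gene C24A1.8 with 48.1, at 211 bp from a piRNA gene with 51.7 and at 196 bp from the ncRNA gene H34C03.18 with 114.

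Introns held peaks near the starts of shorter transcripts. The rule used the 5′ end of each gene, and 44 distal peaks (12.8%, 9.45 to 16.8%) were within 500 bp of the start of some annotated protein-coding transcript, against 7.47% of the other distal candidates. Of these 33 were in introns, 42.9% of the 77 (31.6 to 54.6%), against 11.3% of the other distal candidates in introns. With transcript starts in the rule in place of gene starts, 44 intron peaks would remain. At lea-1, a gene of the late embryogenesis abundant family, the summit was 378 bp upstream of a transcript start, with a signal of 107. At csr-1, which encodes an Argonaute protein, it was 231 bp upstream of a start, with a signal of 90.2, rank 507 in replicate 1 and rank 219 in replicate 2.

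The intron peak of highest signal was in zip-7, a bZIP transcription factor gene, at chrIV:16503717-16503854, 1883 bp from the gene's 5′ end. Its signal was 162, with rank 63 in replicate 1 and rank 30 in replicate 2, and a B box pattern stood within 100 bp of the summit. The peak in pals-1, at chrI:11580276-11580399, had a signal of 111, rank 330 in replicate 1 and rank 112 in replicate 2. The peak in lips-10, at chrII:8441676-8441759, was 1063 bp upstream of the initiation factor gene eif-3.G. It had a signal of 108 and a B box pattern within 100 bp, and it stood higher in replicate 1 (rank 84) than in replicate 2 (rank 282).

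The intergenic peaks of highest signal lay between divergent genes. The highest of all 344, at chrIV:991144-991334, was 797 bp upstream of egrh-2, opposite lep-2, with a signal of 205, rank 10 in replicate 1 and rank 22 in replicate 2. The next, at chrIII:9617038-9617187, was 631 bp upstream of hcp-3, which encodes the centromeric histone CENP-A, opposite hlh-11, with a signal of 164. It had rank 127 in replicate 1 and rank 25 in replicate 2. The third was 676 bp upstream of hcp-4, which encodes CENP-C, another centromere protein, opposite the glycolytic gene pgk-1, at chrI:3866542-3866684. Its signal was 133, with rank 111 in replicate 1 and rank 60 in replicate 2. Of all 106 intergenic peaks, 47 were between divergent genes (interval 34.7 to 54.3%).

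Few distal peaks lay on X. There were 25, or 1.80 per megabase allowed, against 319 on the autosomes, or 5.24 per megabase, and single autosomes ranged between 2.72 on V and 7.38 on IV. Distal peaks were 12.9% of the IDR peaks of X, and between 19.4% and 23.7% of those of each autosome. Of distal candidates, 1.25% were IDR peaks on X and 1.83% on autosomes, where single chromosomes ranged between 1.34% on V, close to X, and 2.50% on IV.

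Most distal peaks of X were intergenic. On X, 21 of 25 (84.0%, 63.9 to 95.5%) were intergenic, against 85 of 319 (26.6%, 21.9 to 31.9%) on autosomes; among the other distal candidates the shares were 41.9% on X and 21.6% on autosomes. No distal peak on X was in an exon, a count of 0 of 25 whose 95% interval reaches 13.7%; 1 was in an intron and 3 in 3′ flanks. In replicate 1 alone 17 of 25 distal regions of X were intergenic and 4 exonic, and in replicate 2 alone 21 of 26 were intergenic. Within 500 bp of a 3′ end there were 3 of 25 on X (12.0%), against 160 of 319 on autosomes (50.2%), while the other distal candidates had 18.1% on X and 20.7% on autosomes.

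**Figure D4:**
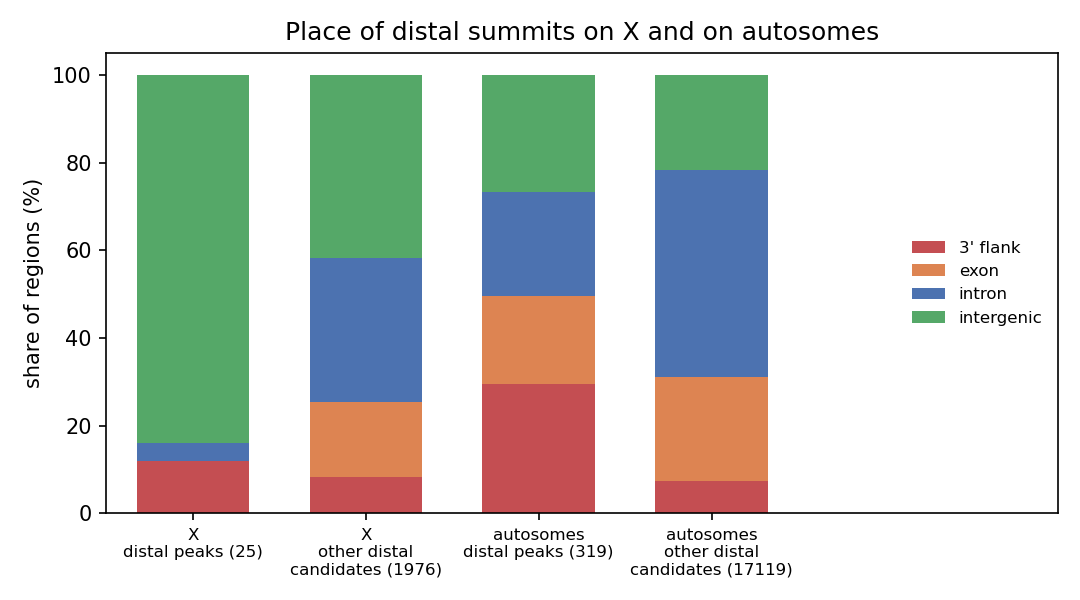
Share of regions in percent by place of the summit, for distal IDR peaks and other distal candidates on X and on autosomes (number of regions under each bar). Intergenic positions take 84.0% of the distal peaks of X, against 41.9% of its other candidates, and 26.6% on autosomes, against 21.6%.

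The X peak of highest signal was at chrX:1837784-1838059, between the convergent genes WBGene00020828 and T26C11.4, with a signal of 111, rank 104 in replicate 1 and rank 254 in replicate 2. Its summit was inside an annotated pseudogene, T26C11.3. Such a summit, in a pseudogene other than of a tRNA, was found for 2 distal peaks (0.581%), against 1.54% of the other distal candidates; the second was the peak past rps-14, in srb-7. The signal on X had a median of 47.6, against 51.6 on autosomes. The GC content within 100 bp of the summit had a median of 41.8% on X and 35.3% on autosomes. Whether GC content bears on the X counts was not tested.

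Agreement between the replicates was read from the overlap of their highest regions. Of the 344, 164 (47.7%, 42.3 to 53.1%) overlapped a region among the 1650 highest in both replicates, against 792 of 1306 (60.6%, 57.9 to 63.3%) of the other nuclear IDR peaks. In replicate 1 this held for 62.2%, against 71.5%, and in replicate 2 for 80.5%, against 85.4%. The 2 sets were not matched for signal, whose median was 51.6 in distal peaks and 59.2 in the other IDR peaks. Whether the lower signal bears on the agreement was not tested. Of the distal peaks 50 were high in replicate 1 alone, 113 in replicate 2 alone and 17 in neither. Spearman's rho between the replicate ranks was 0.274 over 341 distal peaks, against 0.471 over 1282 other IDR peaks. It is a description over regions that share libraries and come from a list cut by pooled signal.

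**Figure D5:**
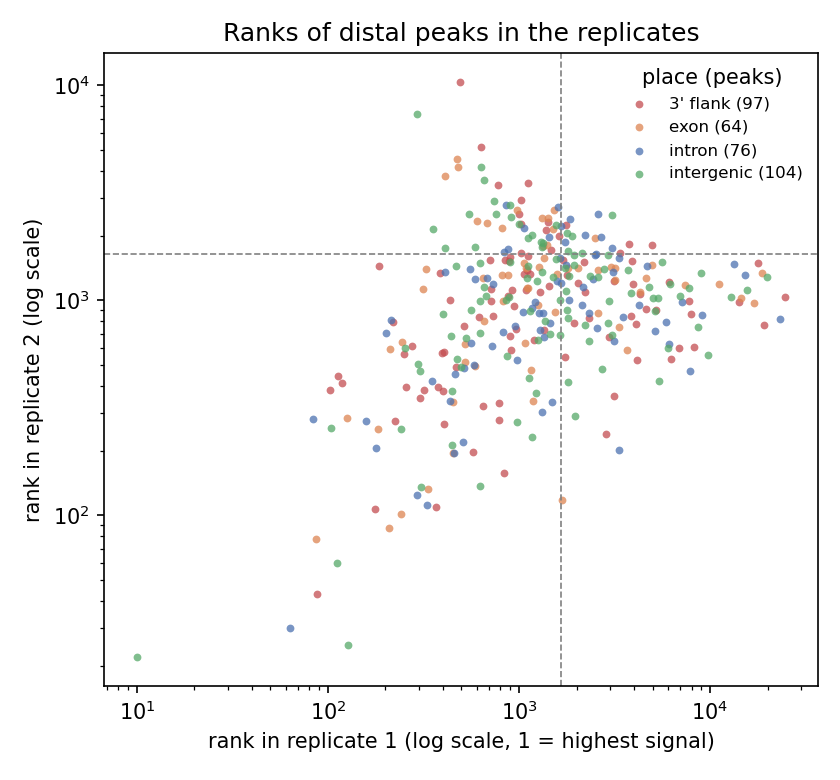
Rank of the distal peaks by signal in replicate 1 (horizontal, log scale) and replicate 2 (vertical, log scale), 1 being the highest, coloured by place; the dashed lines mark rank 1650. Of 344 distal peaks 164 are within the lines in both replicates, 50 only in replicate 1 and 113 only in replicate 2.

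By position, the share high in both replicates was 52.6% in 3′ flanks (42.2 to 62.8%), 32 of 64 in exons (37.2 to 62.8%), 48.1% in introns (36.5 to 59.7%) and 41.5% in intergenic positions (32.0 to 51.5%). These intervals overlap. The median rank of distal peaks was 1220 in replicate 1 and 1022 in replicate 2, against 856 in replicate 1 and 786 in replicate 2 for the other IDR peaks.

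Sequence patterns were sought within 100 bp of each summit, in either orientation. The B box pattern GWTCRANNC was in 42 distal peaks (12.2%, 8.94 to 16.1%), against 29.8% of the other IDR peaks, 7.04% of the other distal candidates and 9.30% of windows of the same length 500 bp to each side of the distal peaks. The A box pattern was in 6 (1.74%), against 7.27% of the other IDR peaks and 2.74% of the other distal candidates. The rule keeps peaks within 250 bp of a tRNA gene out of the distal set and among the other IDR peaks. How much of the difference from the other IDR peaks in both patterns follows from the rule was not tested. By position the B box pattern was in 16.9% of intron peaks, 15.1% of intergenic peaks, 9.28% of 3′ flank peaks and 6.25% of exon peaks.

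GGGCGG was in 25 distal peaks (7.27%, 4.76 to 10.5%), against 10.6% of the other IDR peaks, 4.25% of the other distal candidates and 4.65% of the flanking windows. It was in 13.0% of intron peaks and 12.3% of intergenic peaks, and in 1 peak each of the 3′ flanks and exons. GAGAGA was in 67 (19.5%, 15.4 to 24.1%), against 21.0% of the other IDR peaks, 11.2% of the other distal candidates and 14.4% of flanking windows. CTGTTTCA, the motif upstream of C. elegans piRNA genes, was in 4 (1.16%, 0.318 to 2.95%), against 0.842% of the other IDR peaks and 1.02% of the other distal candidates, and all 4 were in 3′ flanks.

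TTTCAG, the form of many C. elegans 3′ splice sites, was in 81 (23.5%, 19.2 to 28.4%), against 24.4% of the other IDR peaks, 40.0% of the other distal candidates and 37.2% of flanking windows. TTTTTT was in 65.1%, against 65.1% of the other IDR peaks, 75.9% of the other distal candidates and 60.3% of flanking windows. The GC content of the same windows had a median of 35.8% in distal peaks, against 40.5% in the other IDR peaks and 33.3% in the other distal candidates, and single patterns were not matched for it. By position the median was 38.8% in intergenic peaks, 37.3% in introns, 35.3% in 3′ flanks and 33.1% in exons.

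Other annotated features were near few distal peaks. A tRNA pseudogene was within 250 bp of 4 (1.16%, 0.318 to 2.95%), against 0.272% of the other distal candidates and 0.306% of the other IDR peaks. The highest was ZK380.t2 on X with a signal of 71.1, rank 525 in replicate 1 and rank 671 in replicate 2. The others were Y22D7AR.t1, in an intergenic stretch 10207 bp upstream of the nearest 5′ end, that of the serotonin receptor gene ser-4, with 57.6, K10B2.t1 with 47.4 and C52E12.t1, in an intron of the kinesin gene unc-104, with 43.5. The pseudogene K10B2.t1 had no region in replicate 1 and rank 896 in replicate 2.

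A long non-coding RNA gene held the summit of 5 distal peaks (1.45%, 0.474 to 3.36%), against 0.560% of the other distal candidates, the highest being C30E1.9 with a signal of 54.3. Another IDR peak, distal or not, had its summit within 2000 bp of the summit of 82 distal peaks (23.8%, 19.4 to 28.7%), against 20.7% of the other IDR peaks and 8.41% of the other distal candidates. Windows were unique in sequence at 311 members (90.4%, 86.8 to 93.3%), in that every 31-mer occurred once in the genome, against 69.1% of the other IDR peaks and 85.7% of the other distal candidates. The other IDR peaks include those at short RNA genes, which the rule leaves out of the distal set. How far this bears on the difference was not tested. Under 50% of 31-mers were unique at 4 members, near tbc-9, F53F8.7, tbx-31 and tin-13, with signals between 40.1 and 47.2. In the window near tbc-9 no 31-mer was unique and the median 31-mer occurred 27 times. Over 50% of the window was repeat-masked at 29.4% of distal peaks, against 42.5% of the other distal candidates.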

How the data were processed

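The deposited peak lists of 2 biological replicates were analysed on ce11; the same lists on ce10 were not used. Per the notes that accompany the deposited files, the authors called regions for each replicate and for the pooled replicates against 1 control, and derived the IDR peaks from these. The deposited lists give a signal value per region, on the scale of the authors' caller, a −log10 q-value by the authors, which was not used to select regions, and a placeholder in place of p-values. Aligner, caller, IDR threshold and read length: not given in the sources used here. Depth per sample is unknown, because the lists hold no read counts. The intervals reflect the number of regions only and do not measure the spread between the 2 replicates.

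Summits were placed on the Ensembl release 115 annotation and on the RefSeq sequence of the same assembly, WBcel235, with Python 3.11.15, numpy 2.4.6, pandas 2.3.3 and scipy 1.17.1; figures were drawn with matplotlib 3.10.9. Mitochondrial regions were left out. Ranks count nuclear regions by signal within each list. The placing code was tested on simulated summits with known positions. Shares have exact Clopper-Pearson 95% intervals, with no test over regions. A region overlapped a replicate's region where they shared at least 1 bp. Each alternative setting is given in the closing section.

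The members and lists were chosen with earlier results of these data known. Named regions were the 10 of highest signal, the highest 3 of each kind of position or feature, the 3 nearest each distance limit and at most 4 per list; the members csr-1, rpl-13, rpl-35, rps-14, eef-2, the peak upstream of F02E8.4 and the highest on X were added after their values were seen. The highest peaks in exons are shown without sequence.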

Additional observations from a re-analysis of the deposited data

How the results depend on the processing

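There were 94 alternative values for 14 results. Of these, 61 stayed within 1.5 times a count or within the interval of a share or median, and 33 did not. Some directions are fixed by the setting. The upper part of the list must hold fewer peaks with a higher median signal. Shorter distances must admit more peaks, longer ones fewer, and a shorter motif window cannot hold more matches. Shorter distances also admit peaks near gene 5′ ends, where transcripts start, which raises the share near a transcript start. Counting any overlap of the region can only remove peaks. The 5′ ends of all transcripts remove the peaks within 500 bp of a transcript start. The cause of the other changes was not tested. With the upper 50% of the IDR peaks by signal, 120 were distal (14.5% of nuclear peaks, 0.617% of distal candidates), 32 between genes, 38 in 3′ flanks, 23 in exons and 27 in introns, with a median signal of 74.2, 60.0% high in both replicates and 53.3% within 500 bp of a 3′ end. With 0.5 times the distances, 572 were distal (34.7%, and 2.50% of candidates), 219 between genes and 181 in 3′ flanks, with a B box in 8.92% and a transcript start within 500 bp of 46.3%. With 2 times the distances, 218 were distal (13.2%, and 1.48% of candidates), 64 between genes, 64 in 3′ flanks, 41 in exons and 49 in introns, and 9.17% had a transcript start within 500 bp. Counting any overlap of the region gave 17.7% distal. The 5′ ends of all transcripts gave 18.2% distal and 44 in introns. Motif windows of 50 bp gave a B box in 7.56% and GGGCGG in 3.78%.

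Without one replicate, the distal share of nuclear peaks ranged between 22.5 and 27.2%, the share of distal candidates between 1.92 and 2.27%, and the count in exons between 88 and 146, the last without replicate 2. The distal count ranged between 371 and 449 and the share within 500 bp of a 3′ end between 49.9 and 52.1%. The alternatives for the 3′-end share were chosen after seeing the data. No paired analysis was possible because there was only 1 group.

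Without read counts, the depth behind a peak could not be weighed, and peaks absent from the list are not shown to be unbound. All regions come from 1 tagged strain and 1 control, and no untagged strain is analysed here.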
